A study of Mus musculus with 4 samples.

Results

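The interferon regulatory factors are a family of transcription factors that carry a shared DNA-binding domain with conserved tryptophans. Irf1, Irf2, Irf3, Irf4, Irf5, Irf7, Irf8 and Irf9 were taken by gene symbol, 8 of the 50763 genes counted in the study. All 8 passed the filter on low counts. The 8 genes were chosen with the difference between the groups already in view, so their values are a description and carry no test. Where one of them is said to be called or to pass, only its side of the threshold set for all genes is meant.

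RNA with poly(A) tails was sequenced from spermatocytes at pachytene, the stage of meiotic prophase with fully paired chromosomes, purified from mouse testis. There were 2 libraries of wild-type (WT) mice and 2 of mice labelled as an Hsf5 knockdown, and the labels call the replicates biological. Hsf5 is a germ cell member of the heat shock factor family. Neither strain, age, the means of the knockdown nor the number of animals is given in the sources used here, so spreads and p-values measure the differences between these libraries.

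As background, cells sense foreign or misplaced nucleic acid through cytoplasmic and endosomal receptors, whose adaptors and kinases switch on IRF3 and IRF7, the factors that start interferon transcription. Secreted interferons signal through JAK kinases to STAT proteins. With IRF9 these form the complex ISGF3, which binds the interferon-stimulated response element (ISRE), whereas pairs of STAT proteins bind the gamma-activated site (GAS) and induce genes such as Irf1. IRF1 activates and IRF2 antagonises many of the same targets, and IRF4, IRF5 and IRF8 are best known from lymphocytes, macrophages and dendritic cells.

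The libraries held 33287428 to 42479164 counts. Hsf5 stood at 586 and 449 CPM (here read counts scaled to library size by the TMM method) in WT and at 287 and 238 CPM in the knockdown. Markers of the purified cell itself differed between the groups: the 15 pachytene genes summed to 11428 and 10306 CPM in WT and 3389 and 2639 CPM in the knockdown, with 9 called lower and 3 (Sycp1, Hormad1 and Hormad2) higher. The count called higher was 1 without WT replicate 2. Markers of other testis cells differed too. The 15 Sertoli cell markers summed to 215 and 502 CPM in WT and 4673 and 5299 CPM in the knockdown, and all 15 were called higher. The 8 Leydig cell markers summed to 119 and 817 CPM in WT and 1445 and 2936 CPM in the knockdown, with all 8 called higher, but only 1 without knockdown replicate 2, 5 without WT replicate 1, 3 with the DESeq2 Wald test and 2 under a scaling set by meiotic chromosome axis and cohesin genes. WT replicate 2 was above WT replicate 1 for both. All 12 spermatid markers were called lower, from sums of 4100 and 2059 CPM to 20.8 and 12.6 CPM. Spermatogonia markers were called higher in 9 of 13, and peritubular and endothelial markers in 8 of 12, with sums of 22.1 and 50.5 CPM in WT and 294 and 189 CPM in the knockdown. In RNA of many cells, fewer cells of a type and less RNA per cell cannot be told apart.

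Of the 23594 genes tested, 60.9% were called, 27.4% higher in the knockdown and 33.5% lower (edgeR quasi-likelihood test, adjusted p of at most 0.05). Both knockdown libraries lay above both WT libraries for 39% of tested genes and below both for 43.7%. Of the 8 interferon regulatory factor genes 5 were called higher (Irf1, Irf5, Irf7, Irf8 and Irf9), none lower and 3 neither (Irf2, Irf3 and Irf4). In 6 of them the knockdown libraries lay above both WT libraries, in 1 below, and in 1 the groups overlapped. A log2 fold change above 2 was found for 4 of the 8, with Irf5 next at 1.98, and for 20.3% of tested genes. The median was 2.22 over the 8 and -0.12 over all tested genes. Because the members were picked on this contrast, nothing is read from these counts.

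**Figure D1:**
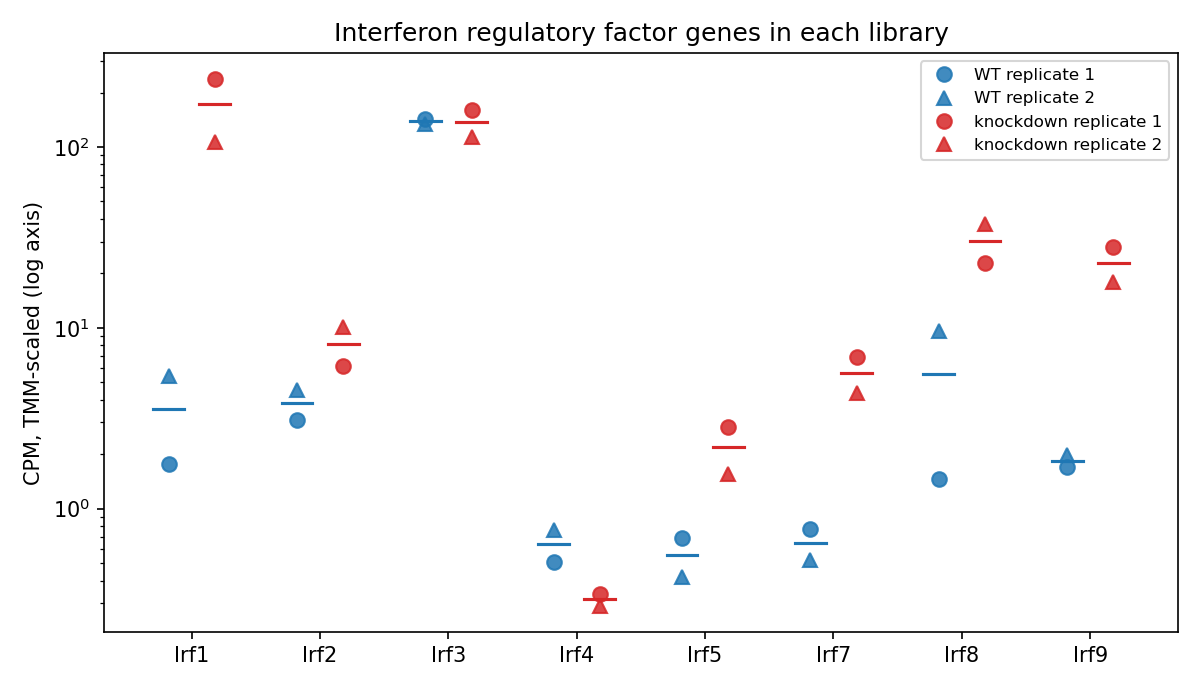
Level of each interferon regulatory factor gene in CPM on a log axis, 1 point per library (WT blue, knockdown red; circles replicate 1, triangles replicate 2) with short lines at the group means. Irf1 runs from 1.76 CPM in WT replicate 1 to 237 CPM in knockdown replicate 1, while the 4 libraries of Irf3 lie between 113 and 160 CPM.

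Irf1, the interferon-gamma induced activator of the family, had the widest gap. It stood at 1.76 and 5.39 CPM in WT and at 237 and 107 CPM in the knockdown. The groups were far apart, with the lower knockdown library 19.9-fold above the higher WT library, although the replicates differed by 3.06-fold in WT and 2.21-fold in the knockdown. The ratio of group means was 48.1 and the fitted log2 fold change 5.59 (SE 0.63), and it ran from 4.97 to 6.63 when each library was left out in turn.

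The sequence in front of a gene is where such factors bind, so promoter windows are shown for the 3 members with a GAS match and for Irf3, whose groups overlapped. They come from RefSeq (build GRCm38.p6, older than the mm39 build of the counts), run from 250 bases before to 50 bases after the annotated start, and are written on the gene's own strand. Capitals mark matches to the GAS letters TTCNNNGAA, the ISRE (a direct repeat of gaaa with a gap of 2 bases) or the NF-kappaB consensus, searched on both strands.
Irf1, chr11:53769764-53770063, plus strand: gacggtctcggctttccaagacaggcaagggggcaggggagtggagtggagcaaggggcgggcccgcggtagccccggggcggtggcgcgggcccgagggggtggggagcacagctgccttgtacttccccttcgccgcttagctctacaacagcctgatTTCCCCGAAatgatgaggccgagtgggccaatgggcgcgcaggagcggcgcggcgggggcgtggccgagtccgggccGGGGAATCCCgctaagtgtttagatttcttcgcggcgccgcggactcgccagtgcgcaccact
Irf8, chr8:120736108-120736407, plus strand: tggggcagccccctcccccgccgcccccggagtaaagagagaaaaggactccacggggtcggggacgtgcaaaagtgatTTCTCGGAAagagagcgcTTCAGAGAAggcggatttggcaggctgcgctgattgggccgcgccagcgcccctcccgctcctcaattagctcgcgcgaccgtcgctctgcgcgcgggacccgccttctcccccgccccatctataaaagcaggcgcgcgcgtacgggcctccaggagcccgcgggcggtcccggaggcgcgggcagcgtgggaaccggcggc
Irf2, chr8:46739495-46739794, plus strand: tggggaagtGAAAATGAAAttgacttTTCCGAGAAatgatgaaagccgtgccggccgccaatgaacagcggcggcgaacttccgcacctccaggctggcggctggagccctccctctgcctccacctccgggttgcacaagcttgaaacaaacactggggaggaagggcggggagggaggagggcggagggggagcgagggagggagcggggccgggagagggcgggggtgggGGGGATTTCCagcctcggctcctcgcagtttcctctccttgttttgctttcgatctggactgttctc
Irf3, chr7:44997398-44997697, plus strand: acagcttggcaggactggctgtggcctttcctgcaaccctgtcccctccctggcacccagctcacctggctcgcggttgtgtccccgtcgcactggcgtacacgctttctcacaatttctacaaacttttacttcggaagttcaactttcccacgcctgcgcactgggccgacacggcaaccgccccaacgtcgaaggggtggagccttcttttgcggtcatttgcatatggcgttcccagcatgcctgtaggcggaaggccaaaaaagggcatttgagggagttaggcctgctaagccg
In Irf1 the GAS match TTCCCCGAA begins 90 bases before the start, followed by the NF-kappaB match GGGGAATCCC at 13 bases before it. Irf8 holds a pair of GAS matches, TTCTCGGAA and TTCAGAGAA, 171 and 153 bases before its start. Irf2 holds the ISRE match GAAAATGAAA 241 bases before its start, a GAS match and an NF-kappaB match. A GAS match was in a window of 3 of the 8 genes, against 9.55% of the 27025 genes with a promoter window. An ISRE match was in 1 of the 8 (3.99% of all genes) and an NF-kappaB match in 2 (9.55%). The heat shock element letters GAANNTTC were in no window of the 8 genes and in 9.04% of all genes. Irf4, Irf5, Irf7 and Irf9, whose windows are not shown, held no match to any of these motifs. The same was true of Irf3 and of a second window each of Irf1 and Irf8. Members without a match thus include Irf5, Irf7 and Irf9, which were called higher, while Irf2, with matches to 3 motifs, was not called. A relation of matches to the changes was not tested. Matches describe letters in these windows only, and matches of different motifs did not overlap each other in the 4 windows shown.

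Irf9, the DNA-binding subunit of ISGF3, was low and even in WT at 1.70 and 1.98 CPM, and stood at 28.0 and 17.8 CPM in the knockdown. The replicates differed little beside the gap between groups, and the ratio of means was 12.4. The fitted log2 fold change was 3.64 (SE 0.47), between 3.35 and 3.93 with a library left out. Irf9 overlaps Rnf31, a subunit of the linear ubiquitin ligase, on the same strand in the GENCODE M21 annotation. How reads shared by both genes were counted is not given in the sources used here. Rnf31 stood at 11.8 and 9.77 CPM in WT and 31.0 and 38.3 CPM in the knockdown, and unlike Irf9 it was higher in knockdown replicate 2.

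Irf7, the amplifier of type I interferon transcription, had 26 and 15 counts in WT and 324 and 180 in the knockdown, or 0.775 and 0.521 CPM against 6.86 and 4.36 CPM. All 4 values are low, but the groups were apart, with a log2 fold change of 3.10 (SE 0.61). Phrf1, a gene on the opposite strand that overlaps Irf7, stood at 120 to 176 CPM in the 4 libraries, far above it, and did not pass (log2 fold change 0.27, edgeR adjusted p = 0.46). Whether the counts used strand is not given in the sources used here.

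Irf3, the constitutive factor that the nucleic acid sensors activate, was by far the most abundant member in WT. It stood at 142 and 135 CPM in WT and 160 and 113 CPM in the knockdown. The knockdown libraries lay on either side of the WT libraries, and the log2 fold change was -0.02 (SE 0.30). Scaling by library totals alone gave 0.41, and the value was 0.22 without knockdown replicate 2 and -0.22 without knockdown replicate 1, so its sign is not fixed. Bcl2l12, a BCL2-like gene that overlaps Irf3 on the opposite strand, fell from 154 and 120 CPM to 47.1 and 32.1 CPM (log2 fold change -1.79, SE 0.32, edgeR adjusted p = 0.0013).

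Irf8, a factor of macrophages and dendritic cells, was the member with the least even WT libraries. It stood at 1.46 and 9.59 CPM in WT and at 22.9 and 37.4 CPM in the knockdown. Both knockdown values were above both WT values, by 2.39-fold at the nearest, but the WT replicates differed by 6.57-fold. The log2 fold change of 2.45 (SE 0.74) was 4.39 without WT replicate 2 and 1.63 without WT replicate 1, and at 2.03 it did not pass without knockdown replicate 2. The libraries of Irf8 stood in the same order as the summed Leydig and Sertoli cell markers. This order was not particular to those markers. The interferon receptor and JAK-STAT genes described below shared it, at sums of 149, 213, 523 and 592 CPM, as did the partners and co-repressors. The part of Leydig and Sertoli cells in the level of Irf8 was not tested.

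Irf5, which drives inflammatory cytokine genes in macrophages, had 23 and 12 counts in WT and 134 and 64 in the knockdown. This is 0.686 and 0.417 CPM against 2.84 and 1.55 CPM, a log2 fold change of 1.98 (SE 0.69). Groups did not overlap, and the gene no longer passed without WT replicate 2 or without knockdown replicate 1. Tnpo3, a nuclear import receptor gene that overlaps it on the other strand, was at 68.8 to 123 CPM.

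Irf2, the antagonist of IRF1, stood at 3.10 and 4.55 CPM in WT and 6.16 and 10.1 CPM in the knockdown. The nearest libraries of the groups were 1.35-fold apart, and the log2 fold change of 1.09 (SE 0.51) did not pass. Irf4, the lymphocyte factor, was at 12 to 22 counts in every library, which is 0.507 and 0.765 CPM in WT and 0.339 and 0.291 CPM in the knockdown. It was the only member with both knockdown libraries below WT, at a log2 fold change of -1.0 (SE 0.74) that did not pass.

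**Figure D2:**
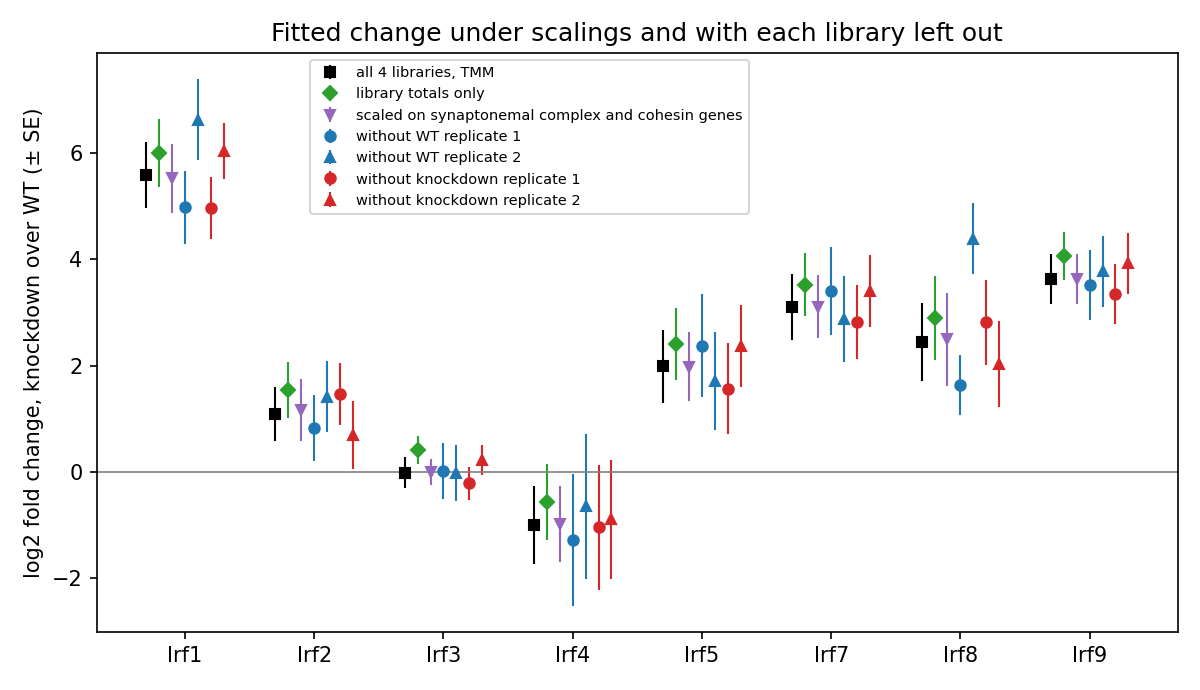
Fitted log2 fold change of knockdown over WT with its standard error for each gene, with all 4 libraries, under other scalings and with each library left out. Irf1, Irf2, Irf5, Irf7, Irf8 and Irf9 stay above 0 and Irf4 below 0 in every setting drawn. Irf8 spans 1.63 to 4.39, and Irf3 takes both signs.

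Levels between genes are compared per kilobase of the longest coding transcript (RPKM). In WT, Irf3 was at 68.1 ± 2.70 RPKM (SD, n = 2). Next came Irf8 at 1.94 ± 2.02, Irf1 at 1.67 ± 1.20 and Irf2 at 1.53 ± 0.41 RPKM, which did not differ beyond their spread. Irf9 followed at 0.622 ± 0.067 RPKM, within the range of Irf8, which was below it in WT replicate 1 (0.513 against 0.574 RPKM), then Irf7 at 0.290 ± 0.080 and Irf5 at 0.246 ± 0.085 RPKM, whose libraries overlapped, and Irf4 at 0.133 ± 0.038 RPKM. In the knockdown Irf1 was at 80.4 ± 42.9 and Irf3 at 67.3 ± 16.5 RPKM, with overlapping libraries. Irf8 at 10.6 ± 3.61 and Irf9 at 7.74 ± 2.42 RPKM overlapped as well, as did Irf2 at 3.26 ± 1.12 and Irf7 at 2.51 ± 0.79 RPKM. Irf5 at 0.979 ± 0.41 and Irf4 at 0.0661 ± 0.0071 RPKM were last.

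Within a library these shares do not depend on the scaling between libraries. Irf3 made up 94.7% and 88.1% of the summed RPKM of the 8 genes in WT and 36.9% and 42.2% in the knockdown. The share of Irf1 was 1.11% and 3.35% in WT against 51.7% and 38.1% in the knockdown. The summed level was 74.0 and 75.2 RPKM in WT and 214 and 132 RPKM in the knockdown, and most of the gap was Irf1.

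**Figure D3:**
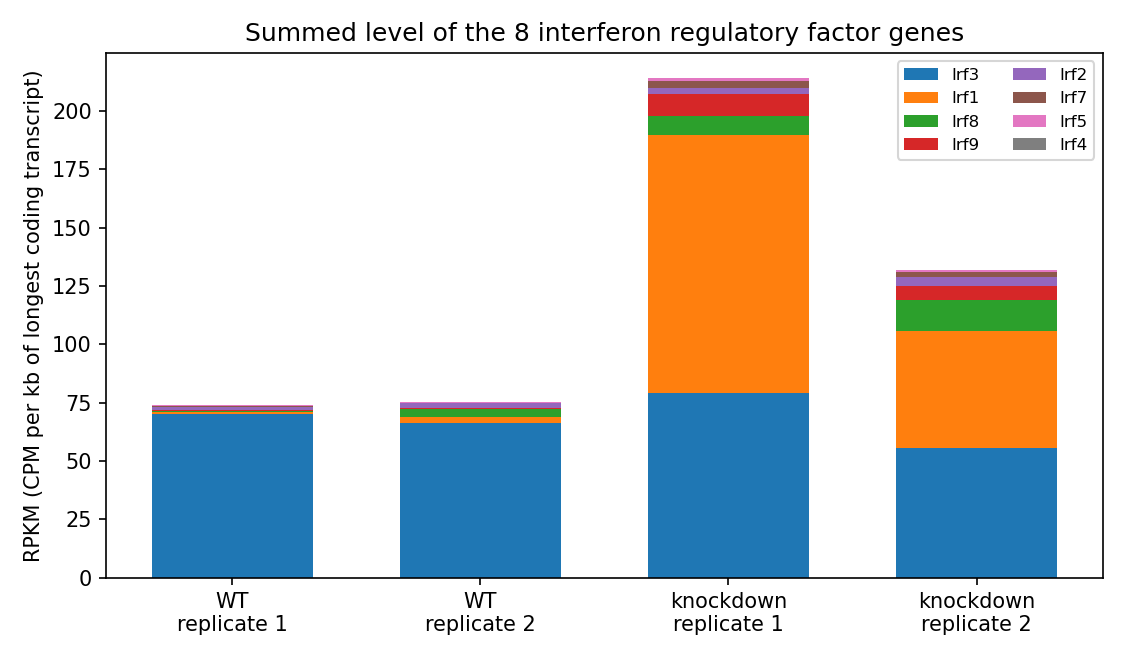
Stacked levels of the 8 genes in each library in RPKM (CPM per kilobase of the longest coding transcript). Irf3 fills 94.7% and 88.1% of the WT bars, and Irf1 51.7% and 38.1% of the knockdown bars.

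The interferon pathway around these factors was read from 6 gene lists with 157 genes, of which 118 could be tested. Of these, 80 were called higher, 6 lower and 32 neither, where 27.4% of all tested genes were called higher and 33.5% lower. The median log2 fold change was 2.27, where that of all tested genes was -0.12. These lists, like the cell marker lists, were chosen with earlier results of these data known. Their counts and medians are thus a description, and no set was tested. The interferons themselves were near absent. Of 21 ligand genes 15 had no count in any library, which allows up to 0.0199 CPM each over the 4 libraries, and the other 6 summed to 24 and 10 counts in WT and 16 and 18 in the knockdown. Ifnl2, a lambda interferon, had the highest mean level, at 0.417 and 0.278 CPM in WT and 0.127 and 0.145 CPM in the knockdown, and Ifnab was at 0.238 CPM or less. No ligand passed the filter, and no difference was detectable at this depth.

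The receptors and their JAK-STAT relay were called higher in 9 of 11 genes, with none lower and a median log2 fold change of 2.05; Ifnlr1 and Tyk2 did not pass. Jak1, the kinase shared by all interferon receptors, rose from 12.8 and 25.8 CPM to 182 and 216 CPM (log2 fold change 3.37, SE 0.40, edgeR adjusted p = 0.00015). Jak2, which serves the interferon-gamma receptor, rose by 3.16 (SE 0.41) on the log2 scale, and the receptor chain genes Ifngr2, Il10rb and Ifngr1 by 2.62, 3.14 and 2.05. Stat2, a partner of IRF9 in ISGF3, rose by 1.20 (SE 0.37). Its call was lost without WT replicate 2 (1.07, edgeR adjusted p = 0.0861) or knockdown replicate 1 (1.11, edgeR adjusted p = 0.0821).

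Upstream of IRF3 and IRF7, 15 of 26 tested sensor and adaptor genes were called higher, 2 lower and 9 neither, with a median of 1.93. The 2 that fell had the smallest p of the list. Dhx58, the RNA sensor LGP2, went from 97.7 and 98.5 CPM to 2.82 and 4.70 CPM (log2 fold change -4.71, SE 0.39, edgeR adjusted p = 2.4e-05). Cgas, the cytoplasmic DNA sensor, went from 35.4 and 22.0 CPM to 3.77 and 4.41 CPM (log2 fold change -2.81, SE 0.43, edgeR adjusted p = 0.00058). Mavs, the mitochondrial adaptor of the RNA sensors, rose by 3.24 (SE 0.51) on the log2 scale, Traf3, a ubiquitin ligase of the same relay, by 2.56 (SE 0.40) and Tbkbp1, an adaptor of the kinase TBK1, by 2.74 (SE 0.43). Rigi, the RNA sensor RIG-I, was as level as Irf3, at 8.26 and 8.48 CPM in WT and 8.17 and 7.13 CPM in the knockdown.

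Negative regulators were divided, with 5 of 11 called higher (27.4% of all tested genes), 2 lower (33.5%) and 4 neither, and a median of 0.96. Socs3, an inhibitor of JAK kinases, rose by 3.30 (SE 0.61) on the log2 scale, Usp18, which removes ISG15 and blocks the type I receptor, by 4.13 (SE 0.84), the phosphatase gene Ptpn11 by 3.04 (SE 0.43) and Nlrx1 by 2.32 (SE 0.55). Rnf125, a ubiquitin ligase that acts on RIG-I, fell from 86.7 and 63.2 CPM to 7.37 and 9.45 CPM. The other fall, of Pias1 (log2 fold change -1.12), was lost on leaving out WT replicate 1 (-1.03, edgeR adjusted p = 0.075) and when library totals alone set the scale (-0.68, edgeR adjusted p = 0.0505).

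Interferon-stimulated genes, the targets of this pathway, were called higher in 41 of 56 tested, lower in 2 and neither in 13, with a median log2 fold change of 2.58. Their summed level over 73 listed genes was 221 and 273 CPM in WT and 809 and 682 CPM in the knockdown. The interferon-inducible GTPases, which attack the vacuoles of intracellular pathogens, were called higher in 11 of 12 tested, and summed to 3.94 and 8.17 CPM in WT and 132 and 69.5 CPM in the knockdown. Among them Irgm1 rose from 1.07 and 2.64 CPM to 55.7 and 27.4 CPM (log2 fold change 4.49, SE 0.58, edgeR adjusted p = 0.00025). Igtp rose from 0.0596 and 0.278 CPM to 9.09 and 5.67 CPM. Some of the GTPase genes, such as Igtp, Tgtp1 and Gbp9, passed the filter only through the knockdown libraries. The 4 tested genes of the Ifit family, which bind viral RNA, were all called higher. They stayed low, with the family at a sum of 14.5 and 3.83 CPM in the knockdown. These 4 passed the filter through the knockdown libraries, where they were high, and the 2 other listed Ifit genes were not tested. That all 4 were called higher thus follows in part from the filter. Of the Oas family, which makes the activator of RNase L, 2 of 5 tested were called higher, and neither of the Mx genes passed. Members of the GTPase, Ifit and Oas families resemble each other, so the split of reads among them is less certain.

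Others of the targets were expressed in WT as well. Adar, the RNA editing enzyme, rose by 2.70 (SE 0.41) on the log2 scale and Parp12, an ADP-ribosyltransferase, by 2.30 (SE 0.36). Herc6, the mouse ligase for ISG15, went the other way, from 78.2 and 55.9 CPM to 2.67 and 3.34 CPM (log2 fold change -4.48, SE 0.39, edgeR adjusted p = 3e-05). Isg20, an exonuclease, was the other gene called lower (log2 fold change -2.24, SE 0.45).

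**Figure D4:**
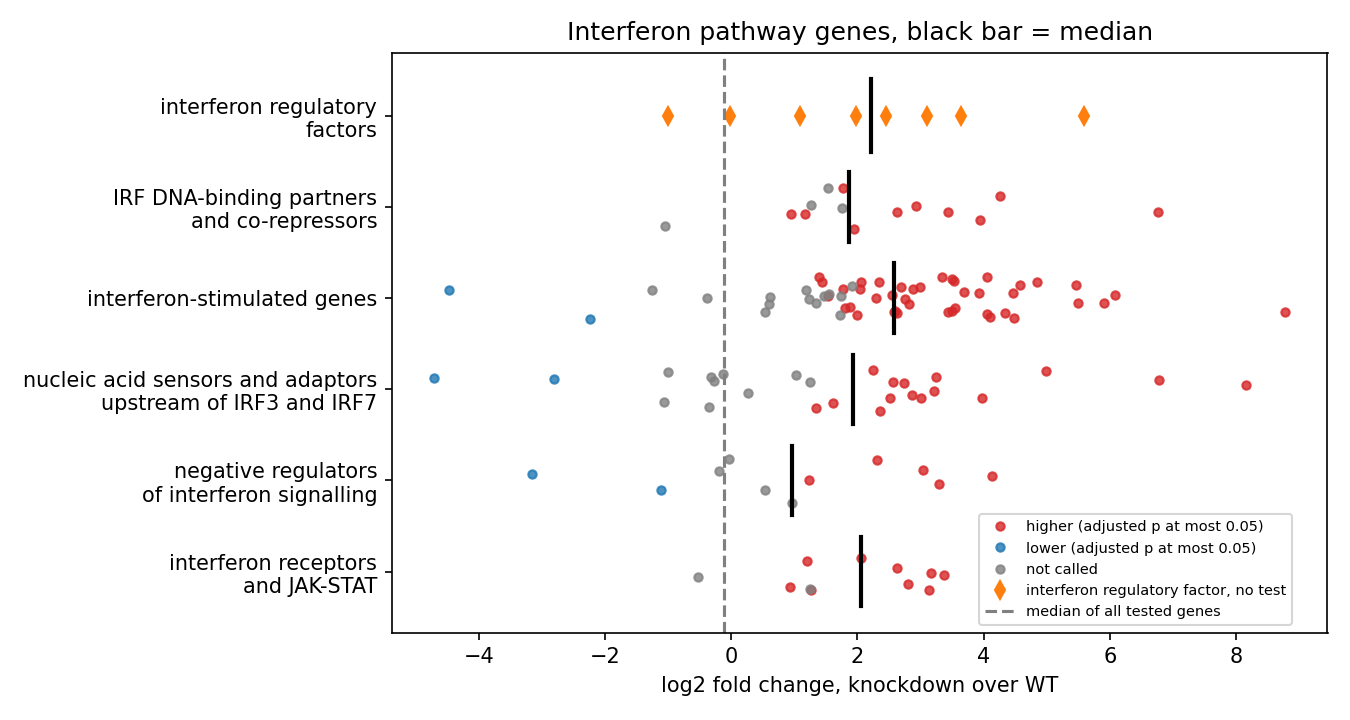
Fitted log2 fold change of each tested gene in 5 interferon pathway lists and of the 8 interferon regulatory factors, with a black bar at each median and a dashed line at the median of all tested genes (-0.12). Points are red where called higher and blue where called lower, and the medians run from 0.96 for the negative regulators to 2.58 for the interferon-stimulated genes.

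Partners that bind DNA with the factors, and their co-repressors, were called higher in 10 of 14 genes with none lower and a median of 1.86. Without WT replicate 1 the count was 6. Irf2bp1, Irf2bp2 and Irf2bpl, listed among the co-repressors, rose by 1.94 (SE 0.35), 2.93 (SE 0.35) and 3.95 (SE 0.70) on the log2 scale. Irf2bpl stood at 1.49 and 8.65 CPM in WT and 68.7 and 87.6 CPM in the knockdown. Spi1, the myeloid factor PU.1 that recruits IRF4 and IRF8, rose from 0.0596 and 0.139 CPM to 2.86 and 0.994 CPM, and Tcf3, an E-protein, by 3.43 (SE 0.37).

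Cells in which these factors are best known were looked for through their markers. Of 19 tested macrophage and dendritic cell markers 14 were called higher (27.4% of all tested genes), 2 (Aif1 and Flt3) lower (33.5%) and 3 neither. The count called lower was 1 without WT replicate 2, without either knockdown replicate and with library totals only. C1qa, a complement gene of tissue macrophages, stood at 0.894 and 0.695 CPM in WT and 28.9 and 7.83 CPM in the knockdown, and Csf1r, the macrophage growth factor receptor gene, at 1.01 and 2.09 against 29.9 and 12.9 CPM. The list summed to 124 and 92.6 CPM in WT and 273 and 153 CPM in the knockdown, but in WT most of that was Aif1 at 86.7 and 41.6 CPM, which fell to 1.44 and 0.242 CPM. Without Aif1 the sums were 37.7 and 51.0 CPM in WT and 272 and 153 CPM in the knockdown. Knockdown replicate 1 was the higher one, as for Irf1, Irf3, Irf4, Irf5, Irf7 and Irf9 but not for Irf2 and Irf8. In WT, replicate 2 was the higher one, as for Irf1, Irf2, Irf4, Irf8 and Irf9 but not for Irf3, Irf5 and Irf7. Fcgr1, a macrophage Fc receptor gene, had no count in WT and stood at 0.720 and 0.339 CPM in the knockdown, where it was called higher. It passed the filter only through the knockdown libraries. Siglech, the marker of plasmacytoid dendritic cells, reached 0.127 CPM at most. Lymphocyte markers summed to 25.8 and 21.9 CPM in WT and 13.8 and 8.0 CPM in the knockdown, with 2 of 10 tested (Cd3e and Cd79a) called higher and 5 lower, and Ncr1 had no count. The count called higher was 1 with any library left out, with the replicate block, with the DESeq2 Wald test and with a minimum mean of 1 CPM, and under the last the count called lower was 3. The part of macrophages, or of the pachytene, Sertoli, Leydig, peritubular, endothelial, spermatogonial and spermatid cells above, in the levels of the interferon regulatory factors was not tested.

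**Figure D5:**
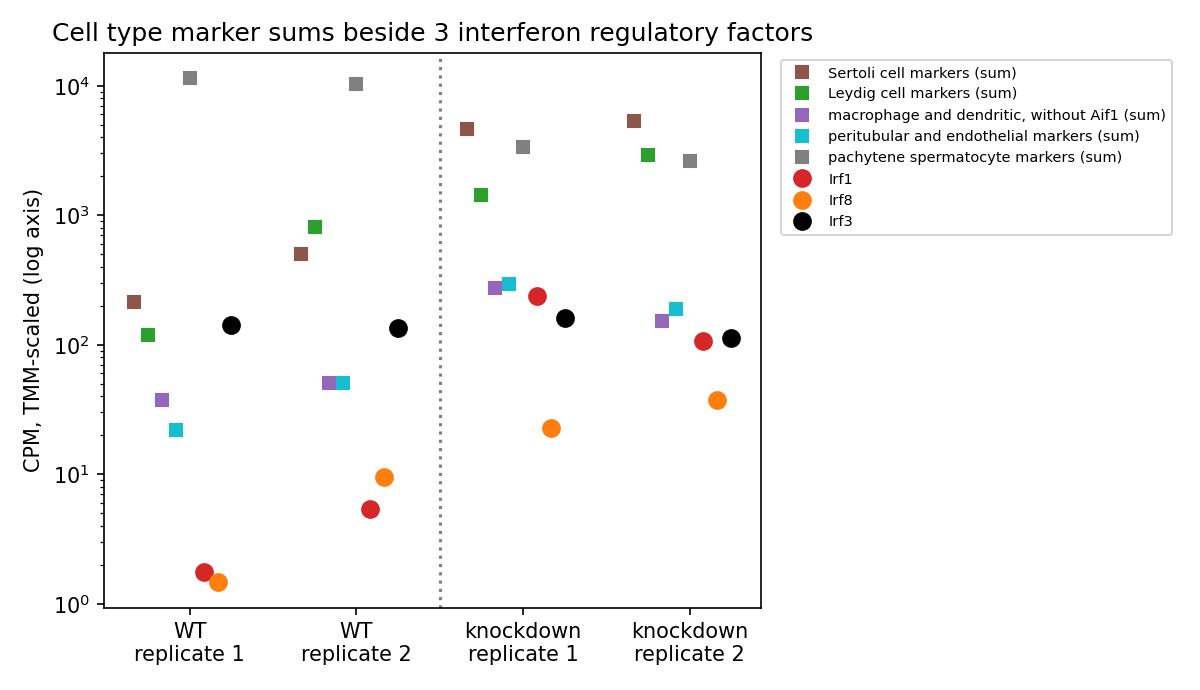
Summed CPM of cell type markers (squares) beside Irf1, Irf8 and Irf3 (circles) in each library, on a log axis. Sertoli cell markers sum to 215 and 502 CPM in WT and 4673 and 5299 CPM in the knockdown, and Irf8, the Sertoli and the Leydig cell markers share their order of libraries.

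The replicates of a group also differed. Knockdown replicate 1 was above replicate 2 for 6 of the 8 interferon regulatory factors, with Irf2 and Irf8 the other way, for 41 of the 56 interferon-stimulated genes and for 16 of 19 macrophage and dendritic cell markers, against 46.6% of all tested genes. The other pathway lists did not share this order, with 5 of 11 receptor and JAK-STAT genes, 11 of 26 sensors and adaptors, 3 of 11 negative regulators and 7 of 14 partners and co-repressors higher in replicate 1. Some germ cell lists did, with 13 of 15 pachytene markers, 22 of 24 synaptonemal complex and cohesin genes and 9 of 13 spermatogonia markers. The first and second of these share genes. Spermatid markers did not, with 5 of 12, nor did Sertoli (5 of 15), Leydig (0 of 8) and peritubular and endothelial markers (5 of 12). WT replicate 2 was above replicate 1 for 5 of the 8 factors and 41 of the 56 interferon-stimulated genes, against 46.9% of all tested genes. The same order held for 8 of 11 receptor and JAK-STAT genes and 18 of 26 sensors and adaptors. It also held for 7 of 11 negative regulators and 9 of 14 partners and co-repressors. Cell marker lists were more extreme, with 8 of 8 Leydig, 12 of 12 peritubular and endothelial and 14 of 15 Sertoli markers. Macrophage and dendritic cell markers had 14 of 19, pachytene markers 2 of 15 and spermatid markers 0 of 12. For each factor the pathway gene with the most similar profile over the 4 libraries was found among 118 candidates. The measure was the root mean square difference of centred log2(CPM + 0.5). The added 0.5 narrows the differences of low genes, so a near match need not have a like fold change. Fitted log2 fold changes were 1.09 for Irf2 and 1.74 for Sp100, and 3.64 for Irf9 and 5.90 for Rsad2. They were 5.59 for Irf1 and 4.49 for Irgm1, and 1.98 for Irf5 and 1.20 for Stat2. Irf8 at 2.45 and Lgals3bp at 2.05 lay closer. Irf9 was closest to the antiviral gene Rsad2 (0.16), which stood at 0 and 0.139 CPM in WT and 5.21 and 3.03 CPM in the knockdown. Irf8 was closest to Lgals3bp (0.17), at 2.27, 15.0, 29.7 and 41.6 CPM in the same order of libraries, and Irf7 to Ifi35 (0.25). Irf5 was closest to Stat2 (0.17), Irf3 to Rigi (0.13), Irf4 to Slc15a4 (0.11) and Irf2 to Sp100 (0.037), while Irf1 had no near match, with Irgm1 nearest at 0.67. With 4 libraries in 2 groups, such likeness mostly restates the difference between the groups.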

How the data were processed

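The authors deposited 1 table of raw read counts per gene symbol with a column per library, matched to the labels by name. Tools named per the submitters' processing notes are featureCounts 1.5.3, HISAT2 2.2.1, DESeq2 1.46.0 and Trim Galore 0.6.10, with build mm39. Not given in the sources used here are the annotation, the strand setting and how reads with several matches were counted. In R 4.3.3, edgeR 4.0.16 (filterByExpr by group, TMM factors, quasi-likelihood F test, Benjamini-Hochberg adjustment over 23594 genes at 0.05) compared knockdown with WT, 2 libraries each, and DESeq2 1.42.0 was an alternative. Standard errors are the log2 fold change over the square root of F. The test was checked on simulated counts. Genes with few counts in WT, such as Usp18, Spi1, Cd3e and Cd79a, passed the filter only through the knockdown libraries. Such genes could hardly be called lower.

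The 8 members and the gene lists were chosen with earlier results of these data known. Named genes are the members, up to 5 called genes of smallest p per pathway list, the most abundant markers, the nearest neighbouring genes and the closest profiles. Stat2, Rigi, Isg20, Pias1, Ifnlr1, Tyk2, Flt3, Cd3e, Cd79a, Sycp1, Hormad1, Hormad2, C1qa, Csf1r, Fcgr1, Siglech, Ncr1, the overlapping genes, the GTPase, Ifit, Oas and Mx groups and the sum without Aif1 were chosen after their values were seen, and some genes under the rule are not reported here. All 293 list entries matched, 1 by synonym. Transcript lengths and overlaps come from GENCODE M21 (GRCm38), the longest coding transcript per symbol.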

Additional observations from a re-analysis of the deposited data

How the results depend on the processing

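The counts of genes called higher (6467) and lower (7902), and of interferon pathway genes called higher (80) and lower (6), stayed within 1.5 times under every alternative run: DESeq2 size factors, library totals only, scaling on synaptonemal complex and cohesin genes, a log2 fold change of at least 1, no filter, the DESeq2 Wald test, a minimum mean of 1 CPM, the replicate block and leaving out each library. Pathway genes called higher ranged from 65 to 91. With 1 library left out, the lone one of its group is assumed to vary like the others. With library totals only, the all-gene median log2 fold change moved from -0.12 to 0.31. Under that scaling 8121 genes were called higher and 6680 lower, so which side was larger depended on the scaling. With the replicate number as a block 7016 genes were called higher and 8351 lower, 83 and 6 of them in the pathway. The numbers are shared labels only: the deviations of same-numbered libraries correlated at 0.32, from 2 pairs. Irf2 passed with the replicate block and with library totals only. Among refits of the other listed genes 2439 kept their side of the threshold and direction, 136 lost the call and 53 gained it. Depth limits Irf4, with 12 to 22 counts per library, and the interferon ligands, with at most 14 counts per gene and library.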

Other observations

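The genes next to the interferon regulatory factors, in the order of GENCODE M21, moved in several directions. Beside Irf9, Psme2, a proteasome activator subunit known to respond to interferon-gamma, rose by 3.02 (SE 0.49) on the log2 scale, from 2.21 and 4.62 CPM to 32.7 and 22.8 CPM. On its other side Rec8, the meiotic cohesin subunit, stood at 41.3 and 26.5 CPM in WT and 20.1 and 15.0 CPM in the knockdown and did not pass (log2 fold change -0.95, SE 0.38, edgeR adjusted p = 0.0532). Il5, the neighbour of Irf1, stayed at 0.784 CPM or less, where Irf1 reached 237 CPM. Foxf1, a mesenchymal transcription factor gene beside Irf8, rose from 0.358 and 0.139 CPM to 7.39 and 7.32 CPM, while Cox4i1 on the other side, of the respiratory chain, did not pass (log2 fold change -0.23, SE 0.36). Dusp22, a phosphatase gene beside Irf4, fell by 1.70 (SE 0.37), and Prmt1, the arginine methyltransferase next to Irf3, rose by 2.30 (SE 0.35).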
